A study of Mus musculus with 17 samples.

Results

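The 48 genes described here are components of the Wnt signalling pathway, taken by symbol from a deposited table of 48820 gene identifiers. They comprise 12 Wnt ligands, 3 genes of ligand processing, 2 R-spondins, 11 receptors and co-receptors, 7 secreted or surface antagonists, 7 cytoplasmic transducers, 3 transcription factors and 3 feedback targets. All 48 were found in the table and passed the filter on low counts. They were followed in epidermal cells of C57BL/6 mice aged 3 months, sorted by green fluorescent protein (GFP) in bulk portions of 1000 cells. The GFP came from an EGFP-CreERT2 cassette at Lrig1, Lgr6 or Lgr5, which also encodes a Cre recombinase that 4-OHT activates. Every group carried such a cassette and had been treated with 4-OHT. Groups labelled Pelo -/- came from Pelo fl/fl mice, and groups labelled WT came from Pelo fl/+ mice, so the controls also carried the Cre and a floxed Pelo allele. There were 3 libraries each of Pelo -/- Lrig1, Pelo -/- Lgr6, WT Lgr6, Pelo -/- Lgr5 and WT Lgr5, and 2 of WT Lrig1. Pelo encodes a factor that releases stalled ribosomes from mRNA. Its deletion can take place only in cells in which the marker gene drives the Cre, and whether each library is a different mouse is not in the labels. P-values therefore measure the spread between these samples, which may be technical.

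Wnt proteins are secreted, lipid-modified ligands. They bind Frizzled receptors together with the co-receptors Lrp5 or Lrp6, which engages Dishevelled proteins and halts the destruction complex built on Axin, Apc and Gsk3b. Beta-catenin, encoded by Ctnnb1, is then no longer degraded and acts with TCF/LEF transcription factors on target genes such as Axin2, while other Wnt signals run without beta-catenin and orient cells within the tissue plane. In skin, Wnt signalling starts hair growth from the hair germ at the base of the resting follicle, and basal keratinocytes between follicles make Wnt ligands as well. Lgr5 marks the lower bulge and hair germ, Lgr6 the isthmus and parts of the epidermis between follicles, and Lrig1 the junctional zone above the bulge.

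Libraries held 9647507 to 28098841 counts, and the 48 genes took 0.259% to 0.391% of the counts in Lgr5 libraries and 0.142% to 0.205% in the others. Levels are counts scaled to library size (CPM), with library sizes adjusted by the trimmed mean of M values (TMM). The TMM factors lay between 0.99 and 1.91 in Lgr5 libraries, highest in WT Lgr5 replicate 3, and between 0.688 and 0.964 elsewhere. Pelo had 3.81, 0.483 and 0.857 CPM in Pelo -/- Lrig1 against 6.05 and 3.72 CPM in WT Lrig1, 3.101, 4.94 and 4.195 CPM in Pelo -/- Lgr6 against 4.12, 5.39 and 2.02 CPM in WT Lgr6, and 11.8, 23.6 and 15.1 CPM in Pelo -/- Lgr5 against 17.4, 5.896 and 17.3 CPM in WT Lgr5. The libraries of the genotypes overlapped in each population, while in Lrig1 the lowest values were those of Pelo -/- replicates 2 and 3. Which exons the floxed allele loses is not stated in the labels. Of the 3 genes that name the populations, Lgr5 matched its label, at 276 to 570.0 CPM in Lgr5 libraries and 0.0531 to 29.4 CPM elsewhere. The other two did not single out their own population: Lrig1 had 7.42 to 41.7 CPM in Lrig1 libraries, 39.3 to 60.02 CPM in Lgr6 libraries and 10.1 to 18.1 CPM in Lgr5 libraries, and Lgr6 had 58.3 to 109 CPM, 79.4 to 197 CPM and 17.7 to 108 CPM in the same order. The names Lrig1 and Lgr6 are therefore those of the sort, and the level of these transcripts does not tell the populations apart in every library. WT Lgr6 replicate 2 stood apart from the other libraries of its group, with 24.6 CPM of Lgr5 against 1.73 and 0.414 CPM, and the count of calls for that group is also given without it.

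Markers of several cell types moved with the population. The summed level of 8 keratinocyte genes was 18990.0 to 34470.0 CPM in Lrig1 and Lgr6 libraries and 1023 to 4396 CPM in Lgr5 libraries, and 8 of 8 passed the test in every comparison with Lgr5. The summed level of 11 bulge and hair germ genes was 6903 to 10750.0 CPM in Lrig1 and Lgr6 libraries and 9966 to 15800.0 CPM in Lgr5 libraries. Of these genes 6 to 8 were called lower than in Lgr5 and 0 higher. Krt15 made up most of that sum outside Lgr5, at 5565 to 9406 CPM there and 2840 to 6923 CPM in Lgr5. The ranges of Nfatc1 and Cdh3 overlapped as well, while Cd34 had 0.159 to 44.6 CPM outside Lgr5 and 194.5 to 366 CPM in Lgr5. Melanocyte markers (8 genes) summed to 12.7 to 39.5 CPM in Lrig1 and Lgr6 and to 64.1 to 334 CPM in Lgr5. Of these, 4 were called lower than in Lgr5 in each Pelo -/- comparison and 1 in each WT one. Fibroblast markers (8 genes) summed to 3.52 to 23.4 CPM in Lrig1 and Lgr6 and 39.9 to 71.7 CPM in Lgr5, with 1 called lower in each comparison. In Lgr5 libraries Col1a2 alone had 16.8 to 47.2 CPM, and Dcn at most 1.09 CPM. Dermal papilla markers (8 genes) summed to 2.80 to 10.5 CPM in Lrig1 and Lgr6 and 13.7 to 36.95 CPM in Lgr5. Of these, 0 were called in WT Lgr6 and 1 was called lower in each other comparison. Hair matrix and shaft markers (6 genes) summed to 9.50 to 37.9 CPM in Lrig1 and Lgr6 and to 19.03 to 89.5 CPM in Lgr5, with 1 called lower in each Pelo -/- comparison and 0 in WT. Langerhans cell and macrophage markers (6 genes) summed to 34.1 to 342 CPM in Lrig1 and Lgr6 and to 3.65 to 13.7 CPM in Lgr5. Outside Lgr5 most of that sum came from Cd74, which had 32.4 to 331 CPM in Lrig1 and Lgr6 and 0.268 to 1.09 CPM in Lgr5. Of these 6 genes 1 was called higher in each comparison, and the list medians were negative, at -1.45 and -1.02 in Pelo -/- Lrig1 and Lgr6 and -1.65 and -0.03 in WT Lrig1 and Lgr6. No endothelial, T cell or Schwann and Merkel cell marker was called in these comparisons. Markers with no count were Lum in Pelo -/- Lrig1, Dcn, Fgf10, Mlana and Lyz2 in WT Lrig1, and Mlana in Pelo -/- Lgr6. The part of these cell types in the Wnt results was not tested. In bulk samples fewer cells of a type and less RNA per cell cannot be told apart.

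Across populations the 48 genes differed mainly between Lgr5 cells and the other populations. In Pelo -/- cells, Lrig1 differed from Lgr5 in 18 of the 48 genes (10 higher and 8 lower in Lrig1) and Lgr6 from Lgr5 in 20 (11 higher and 9 lower in Lgr6), against 7.85% and 9.95% of all 30405 genes tested. In WT cells the counts were 14 (8 higher and 6 lower in Lrig1) and 18 (12 higher and 6 lower in Lgr6), against 11.1% and 12.2% of all genes. Without WT Lgr6 replicate 2 the WT Lgr6 count was 17 (11 higher and 6 lower), and the share of all genes in that fit is not given here. Calls are those of edgeR's quasi-likelihood test where the p, adjusted over all genes by Benjamini-Hochberg, was under 0.05. The median log2 fold change of the 48 genes was -0.36 in Pelo -/- Lrig1 and -0.41 in Pelo -/- Lgr6 against Lgr5, where all genes had -0.64 and -0.61. In WT cells it was -0.23 for Lrig1 and -0.54 for Lgr6, where all genes had -0.99 and -0.49.

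The split between higher and lower calls depended on how libraries were scaled. With RLE size factors the calls in WT Lgr6 against WT Lgr5 were 6 higher and 9 lower, in place of 12 and 6, and the median of all genes was -1.0. In Pelo -/- cells RLE gave 7 higher and 8 lower for Lrig1 and 10 higher and 10 lower for Lgr6, and in WT Lrig1 it gave 8 and 6. The share of all genes called with RLE is not given here, so these splits describe the members only. Among genes with a mean of at least 5 CPM, which kept 34 of the 48, the splits were 6 higher and 12 lower and 10 and 13 in Pelo -/- Lrig1 and Lgr6, and 7 and 13 and 6 and 12 in WT Lrig1 and Lgr6. In that set 23.1% and 28.3% of all genes were called in the Pelo -/- comparisons and 28.1% and 33.4% in the WT ones, and the medians of all genes lay between -0.06 and -0.04. None of the members called against Lgr5 changed sign under any alternative that was run.

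The Pelo -/- and WT versions of a population contrast share no library. For Lrig1 over Lgr5, 11 members were called in the same direction in both genotypes, 6 higher (Wnt3, Wnt3a, Wnt4, Wnt5a, Wnt10a and Fzd10) and 5 lower (Fzd1, Fzd2, Fzd7, Dkk3 and Tcf7l2), against 5.56% of all genes. For Lgr6 over Lgr5 it was 16 members, 10 higher (the same 6 with Wnt7b, Wnt16, Rspo3 and Gsk3b) and 6 lower (the same 5 with Lef1), against 6.93% of all genes. No member was called in opposite directions. Libraries of both genotypes, pooled, did not overlap for 19 members in Lrig1 over Lgr5 and for 19 in Lgr6 over Lgr5, against 16.3% and 13% of all genes. Both sets included Wls, higher outside Lgr5, and Fzd5, lower there, which were called in no comparison. They also included Lrp6, lower outside Lgr5 and called only in Pelo -/- Lrig1.

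**Figure D1:**
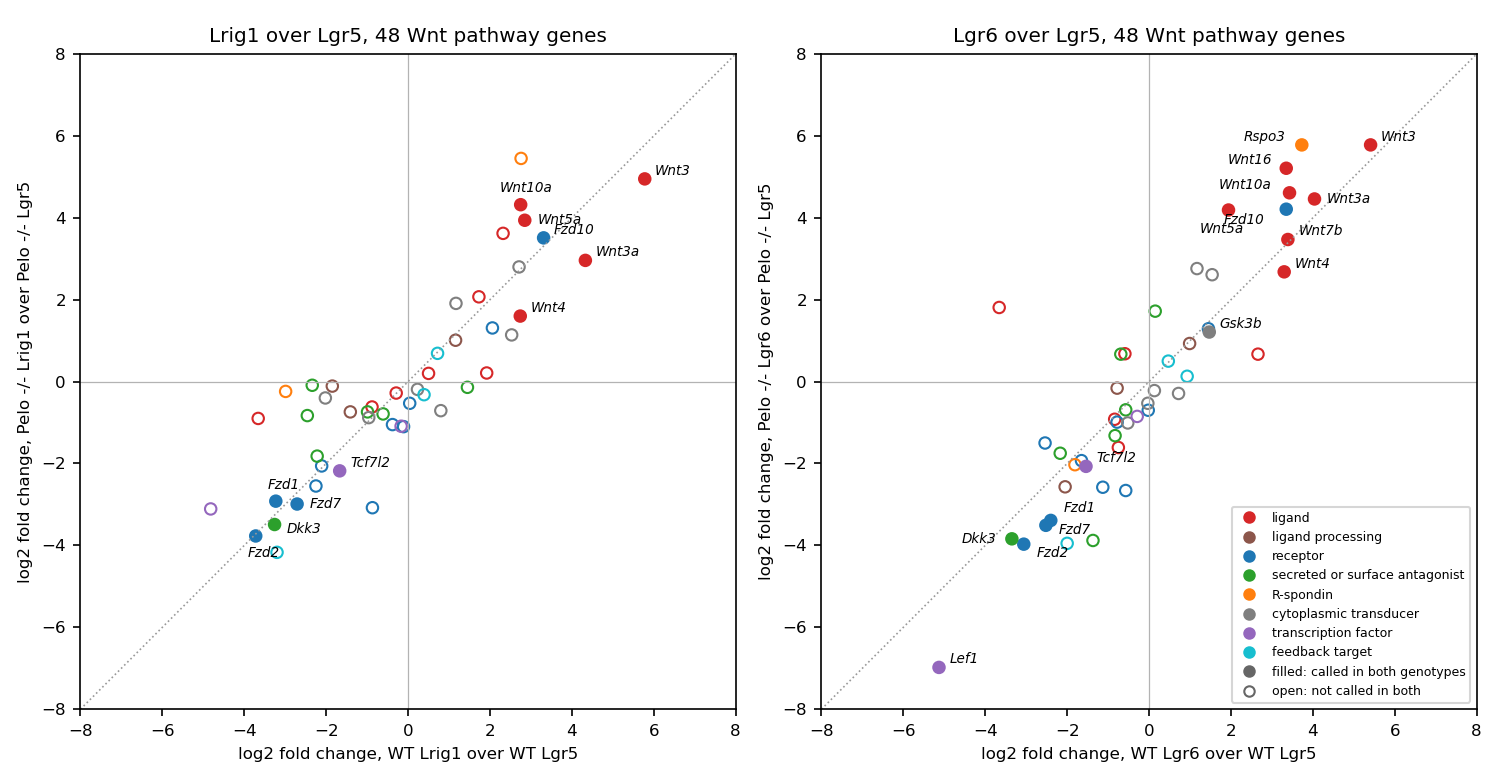
Log2 fold changes of the 48 Wnt genes in Pelo -/- cells (vertical axis) and in WT cells (horizontal axis), for Lrig1 over Lgr5 and for Lgr6 over Lgr5, with 1 point per gene coloured by role and filled where the gene was called in both genotypes. The signs agree for 43 of the 48 genes in each panel, and the filled points are 11 and 16 genes.

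Among the Wnt ligands every call was higher in Lrig1 or Lgr6 than in Lgr5. In Pelo -/- cells 7 of the 12 ligands were higher in Lrig1 and 7 in Lgr6, and in WT cells 5 were higher in Lrig1 and 8 in Lgr6. The share of all genes called higher in these comparisons was 5.77%, 7.23%, 9.09% and 10.6%. The count among ligands in WT Lgr6 includes Wnt6, Wnt5a and Wnt16, whose calls were lost with RLE size factors (edgeR adjusted p = 0.0993, 0.0535 and 0.0757).

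Wnt3 and Wnt3a, ligands that activate beta-catenin, are encoded on chromosome 11 at chr11:103774150-103817957 (plus strand) and chr11:59248033-59290752 (minus strand) of GRCm38. Shown are 225 and 249 of the 250 bases before their RefSeq starts, up to the first exon base that GENCODE M21 annotates there, because these are the ligands whose calls held in both populations, both genotypes and every alternative. They run 5′ to 3′ on the gene's own strand and cover chr11:103773925-103774149 for Wnt3 and chr11:59290753-59291001 for Wnt3a.
Wnt3: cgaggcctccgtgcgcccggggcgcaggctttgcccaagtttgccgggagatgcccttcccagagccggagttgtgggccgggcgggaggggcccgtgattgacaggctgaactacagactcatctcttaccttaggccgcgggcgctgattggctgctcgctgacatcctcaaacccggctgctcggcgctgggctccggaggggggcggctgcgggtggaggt
Wnt3a: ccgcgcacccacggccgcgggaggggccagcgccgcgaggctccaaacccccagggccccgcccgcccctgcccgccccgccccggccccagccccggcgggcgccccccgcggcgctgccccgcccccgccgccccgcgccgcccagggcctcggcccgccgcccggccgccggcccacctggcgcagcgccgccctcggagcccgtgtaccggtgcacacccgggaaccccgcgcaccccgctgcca
In the full 250 bases before the start, G and C made up 68.0% for Wnt3 and 87.6% for Wnt3a, against a median of 52.4% over all promoters in the RefSeq table. Neither window holds the TCF/LEF core, searched as CTTTGAA or CTTTGAT or CTTTGTA or CTTTGTT on both strands.

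Wnt3 stood at 70.9, 95.9 and 69.1 CPM in Pelo -/- Lrig1, 79.95 and 138 in WT Lrig1, 110.2, 140.2 and 170.0 in Pelo -/- Lgr6 and 64.9, 69.7 and 119 in WT Lgr6, against 2.11, 4.397 and 1.18 CPM in Pelo -/- Lgr5 and 1.08, 1.54 and 3.28 in WT Lgr5. The lowest library outside Lgr5, WT Lgr6 replicate 1, lay far above the highest Lgr5 library, Pelo -/- Lgr5 replicate 2. On the log2 scale it was higher than in Lgr5 by 4.95 ± 0.53 (SE) in Pelo -/- Lrig1 and 5.78 ± 0.55 in Pelo -/- Lgr6, and by 5.78 ± 0.57 and 5.41 ± 0.55 in WT Lrig1 and WT Lgr6 (edgeR adjusted p = 1.58e-06, 2.04e-07, 3.65e-07 and 4.09e-07). Wnt3a was measured at 17.2, 9.05 and 5.61 CPM in Pelo -/- Lrig1, 26.5 and 13.9 in WT Lrig1, 31.4, 36.4 and 22.5 in Pelo -/- Lgr6 and 18.8, 14.01 and 16.7 in WT Lgr6. Its Lgr5 libraries lay at 1.29, 1.28 and 1.503 CPM in Pelo -/- and 1.55, 0.513 and 0.929 in WT, below every other library. The log2 fold changes of Wnt3a over Lgr5 were 2.96 ± 0.62 and 4.46 ± 0.66 in Pelo -/- Lrig1 and Lgr6 and 4.33 ± 0.68 and 4.04 ± 0.65 in WT Lrig1 and Lgr6.

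Wnt10a, a ligand whose human gene is mutated in ectodermal dysplasias of teeth, nails and skin, showed the same separation. It stood at 124, 79.6 and 83.8 CPM in Pelo -/- Lrig1, 82.6 and 26.7 in WT Lrig1, 113, 148 and 91.02 in Pelo -/- Lgr6 and 70.1, 107 and 85.9 in WT Lgr6, against 1.702, 1.28 and 11.3 CPM in Pelo -/- Lgr5 and 11.2, 9.16 and 4.05 in WT Lgr5. WT Lrig1 replicate 2 was the lowest library outside Lgr5 and still above all Lgr5 libraries. The differences from Lgr5 were 4.32 ± 0.68 and 4.61 ± 0.68 in Pelo -/- Lrig1 and Lgr6, and 2.75 ± 0.67 and 3.43 ± 0.65 in WT (log2, SE; edgeR adjusted p = 0.000219, 8.83e-05, 0.00742 and 0.000719). Without WT Lrig1 replicate 1 the WT Lrig1 call was lost (edgeR adjusted p = 0.132).

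Wnt4, a ligand known for its roles in kidney and female reproductive tract development, had 76.5, 34.7 and 45.1 CPM in Pelo -/- Lrig1, 46.6 and 40.8 in WT Lrig1, 77.5, 124 and 128 in Pelo -/- Lgr6 and 51.2, 91.02 and 52.1 in WT Lgr6, against 8.51, 30.1 and 12.9 CPM in Pelo -/- Lgr5 and 7.23, 9.61 and 2.84 in WT Lgr5. The Lgr5 libraries were lowest in both genotypes, with Pelo -/- Lgr5 replicate 2 nearest to the others. Relative to Lgr5, Wnt4 rose by 1.60 ± 0.49 in Pelo -/- Lrig1, 2.68 ± 0.51 in Pelo -/- Lgr6, 2.74 ± 0.54 in WT Lrig1 and 3.30 ± 0.53 in WT Lgr6 (log2, SE). The call in Pelo -/- Lrig1 (edgeR adjusted p = 0.0435) was lost under 7 of 13 alternatives, among them the omission of Pelo -/- Lgr5 replicates 1 or 3 or of Pelo -/- Lrig1 replicates 1 or 3.

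Wnt5a, the best known ligand of the signals that run without beta-catenin, stood at 41.3, 36.4 and 49.7 CPM in Pelo -/- Lrig1, 62.1 and 50.2 in WT Lrig1, 42.8, 48.6 and 59.8 in Pelo -/- Lgr6 and 23.4, 15.4 and 50.9 in WT Lgr6. Its level was 1.47, 1.56 and 5.21 CPM in Pelo -/- Lgr5 and 6.02, 12.1 and 5.25 in WT Lgr5, so that all Lgr5 libraries lay lowest. The differences from Lgr5 were 3.94 ± 0.58 and 4.19 ± 0.59 in Pelo -/- Lrig1 and Lgr6 and 2.85 ± 0.58 and 1.94 ± 0.53 in WT (log2, SE). In WT Lgr6 the call (edgeR adjusted p = 0.0144) was lost without WT Lgr5 replicate 1 (0.0619), WT Lgr5 replicate 3 (0.09495) or WT Lgr6 replicate 3 (0.305).

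Wnt7b, a ligand of the hair cycle and of lung development, had 5.23, 6.33 and 12.2 CPM in Pelo -/- Lrig1, 7.25 and 9.19 in WT Lrig1, 15.97, 28.8 and 17.8 in Pelo -/- Lgr6 and 23.9, 28.9 and 25.5 in WT Lgr6, against 1.702, 2.77 and 1.18 CPM in Pelo -/- Lgr5 and 2.16, 1.99 and 3.28 in WT Lgr5. The libraries ran in the order Lgr6, Lrig1, Lgr5 with no overlap within either genotype, and the step between Lgr6 and Lrig1 was called in neither genotype. Against Lgr5 the log2 difference was 3.47 ± 0.63 in Pelo -/- Lgr6 and 3.39 ± 0.63 in WT Lgr6 (edgeR adjusted p = 0.000546 and 0.000419), and it was called in Pelo -/- Lrig1 (2.07 ± 0.60, 0.0305) but not in WT Lrig1 (1.73 ± 0.63, 0.0796). The Pelo -/- Lrig1 call was lost under 8 of 13 alternatives, among them RLE size factors and the omission of Pelo -/- Lgr5 replicates 1 or 3 or Pelo -/- Lrig1 replicates 2 or 3.

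Wnt16, a ligand known for its role in bone, was scarce, with 8.13, 26.3 and 5.95 CPM in Pelo -/- Lgr6 and 9.24, 5.04 and 12.3 in WT Lgr6, against 0, 0.425 and 0.644 CPM in Pelo -/- Lgr5 and 0.608, 0.256 and 1.695 in WT Lgr5. All Lgr6 libraries lay above all Lgr5 libraries. The 3 libraries of each Lgr5 group held 18 counts in Pelo -/- and 44 in WT. Its difference from Lgr5 was 5.21 ± 1.14 in Pelo -/- Lgr6 and 3.35 ± 1.04 in WT Lgr6 (log2, SE), and the WT call was lost without WT Lgr5 replicates 1 or 2 or WT Lgr6 replicates 1 or 3 (edgeR adjusted p 0.0610 to 0.145). In Pelo -/- Lrig1 it was also called higher than in Lgr5 (3.62 ± 1.07, edgeR adjusted p = 0.0351), and lost that call under 7 of 13 alternatives. Wnt6 averaged 8.15 ± 4.39 CPM in WT Lgr6 against 1.28 ± 0.531 CPM in WT Lgr5 (SD; log2 2.66 ± 0.88, edgeR adjusted p = 0.0473) and lost its call without any 1 of the 6 libraries. The other ligands, Wnt5b, Wnt7a, Wnt10b and Wnt11, were called in no population comparison and had group means of 0.261 to 8.74 CPM.

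**Figure D2:**
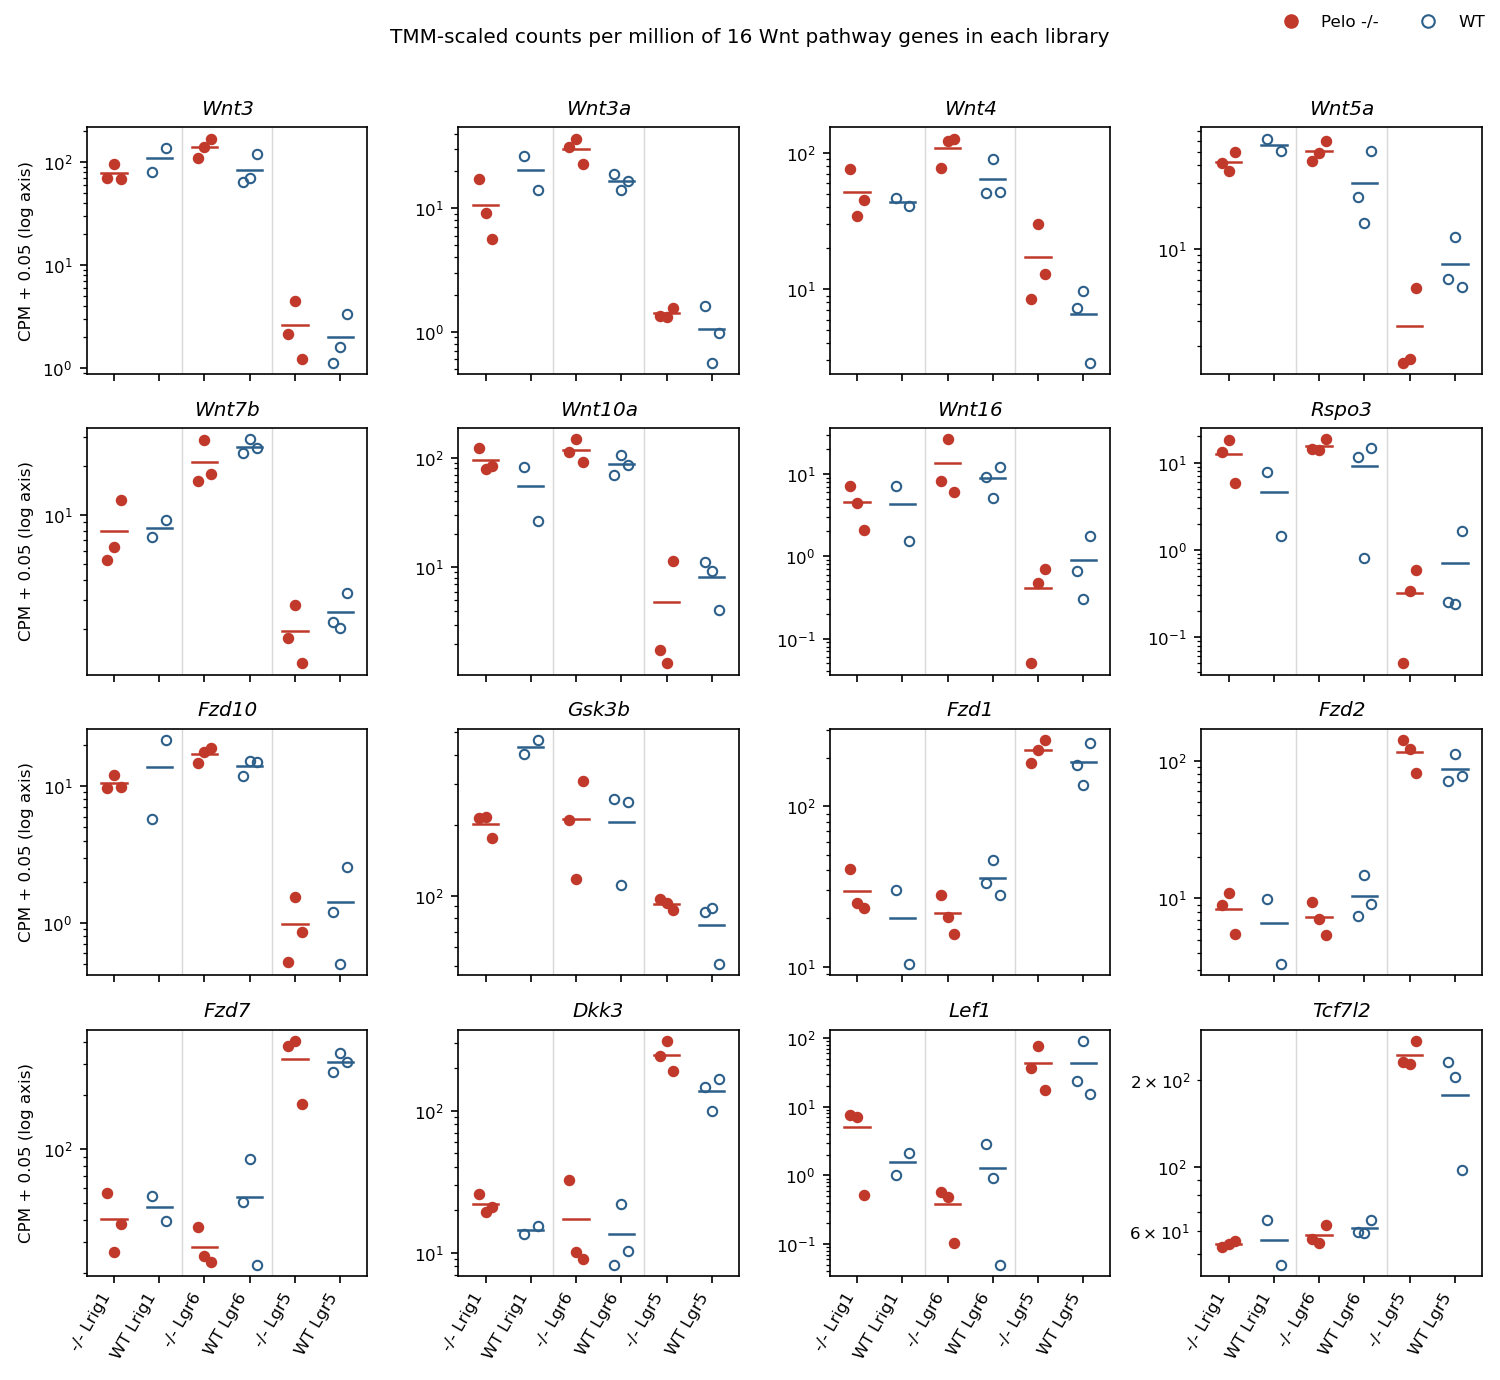
CPM of 16 Wnt genes in every library on a log axis, after adding 0.05 CPM so that values of 0 can be drawn, with Pelo -/- libraries as filled points, WT libraries as open points and group means as lines. The ligands, Fzd10, Rspo3 and Gsk3b lie lower in Lgr5, while Fzd1, Fzd2, Fzd7, Dkk3, Lef1 and Tcf7l2 lie higher there.

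Per kb of exon, which lets genes be compared, the 12 ligands summed to 93.0 ± 16.3 CPM per kb in Pelo -/- Lrig1, 90.5 ± 11.9 in WT Lrig1, 149 ± 23.3 in Pelo -/- Lgr6 and 102 ± 12.8 in WT Lgr6, against 13.2 ± 2.72 in Pelo -/- Lgr5 and 14.3 ± 4.22 in WT Lgr5 (SD, n = 3, or 2 for WT Lrig1). Wnt10a and Wnt3 made up most of the sum outside Lgr5, with 32.01% ± 6.14 and 30.8% ± 5.88 of it in Pelo -/- Lgr6 and 34.6% ± 4.28 and 26.8% ± 7.73 in WT Lgr6. Wnt4 came next with 17.5% ± 3.03 and 15.1% ± 4.33. In Lgr5 cells no ligand led in all libraries. Wnt10a held 14.8% ± 17.2 of the sum in Pelo -/- Lgr5 and 23.96% ± 12.2 in WT Lgr5, Wnt4 29.4% ± 13.99 in Pelo -/- Lgr5 and 12.1% ± 9.06 in WT Lgr5, Wnt5b 15.9% ± 4.67 and 19.3% ± 18.9, and Wnt3 6.18% ± 3.09 and 4.78% ± 2.87.

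The ligand sum over the Frizzled sum within a library does not depend on how libraries are scaled against each other. This ratio was 1.05, 0.9002 and 1.36 in Pelo -/- Lrig1, 1.01 and 0.838 in WT Lrig1, 1.34, 2.13 and 1.97 in Pelo -/- Lgr6 and 0.918, 1.51 and 1.599 in WT Lgr6, against 0.0546, 0.0756 and 0.0754 in Pelo -/- Lgr5 and 0.123, 0.0632 and 0.0842 in WT Lgr5. The lowest ratio in Lrig1 and Lgr6 cells lay above the highest in Lgr5 cells.

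**Figure D3:**
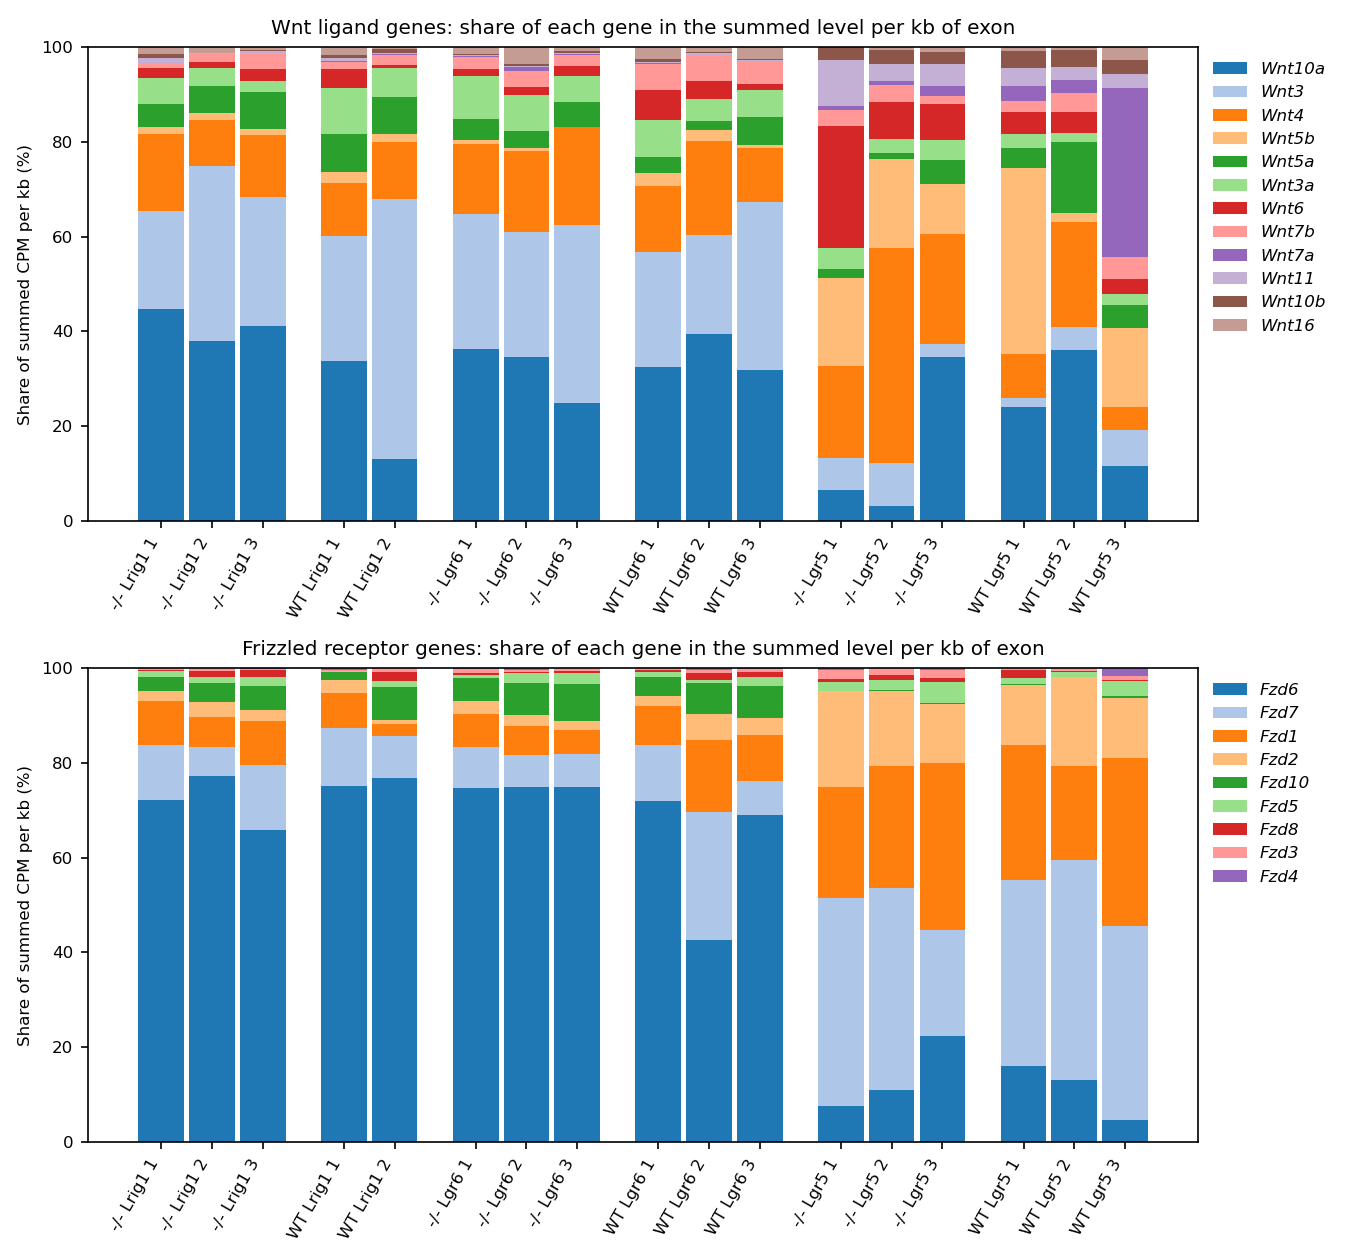
Share of each Wnt ligand in the summed ligand level and of each Frizzled receptor in the summed Frizzled level, in CPM per kb of exon, with 1 stacked bar per library. Wnt10a, Wnt3 and Wnt4 take most of the ligand sum in Lrig1 and Lgr6 libraries, and Fzd6 takes 42.7% to 77.2% of the Frizzled sum there against 4.62% to 22.3% in Lgr5 libraries.

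The 3 genes of ligand processing were called in no population comparison. Wls, the carrier that brings Wnt proteins to the cell surface, was the most abundant of them, at 410.1 ± 57.2 CPM in Pelo -/- Lrig1, 388 ± 140.5 in WT Lrig1, 389 ± 36.4 in Pelo -/- Lgr6 and 344 ± 91.01 in WT Lgr6, against 204 ± 12.6 in Pelo -/- Lgr5 and 173 ± 78.5 in WT Lgr5. Its log2 differences from Lgr5 were 1.01 and 0.93 in Pelo -/- Lrig1 and Lgr6 and 1.16 and 0.99 in WT (edgeR adjusted p = 0.0887, 0.108, 0.0581 and 0.0792). Porcn, the enzyme that attaches the lipid, had group means of 2.87 to 10.4 CPM. Notum, the enzyme that removes it, had group means of 0.194 to 1.72 CPM.

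Rspo3 encodes an R-spondin, a secreted protein that binds Lgr4, Lgr5 or Lgr6 and protects Frizzled receptors from removal. It stood at 13.1, 18.3 and 5.76 CPM in Pelo -/- Lrig1, 7.79 and 1.402 in WT Lrig1, 14.3, 13.9 and 18.4 in Pelo -/- Lgr6 and 11.4, 0.756 and 14.8 in WT Lgr6, against 0, 0.284 and 0.537 CPM in Pelo -/- Lgr5 and 0.203, 0.192 and 1.59 in WT Lgr5. WT Lgr6 replicate 2 and WT Lrig1 replicate 2 lay within the range of the Lgr5 libraries. The log2 difference from Lgr5 was 5.45 ± 1.21 in Pelo -/- Lrig1, 5.78 ± 1.23 in Pelo -/- Lgr6 and 3.73 ± 1.10 in WT Lgr6 (edgeR adjusted p = 0.00512, 0.00258 and 0.0247), and it was not called in WT Lrig1 (2.76 ± 1.13, 0.114). The WT Lgr6 call was lost under 8 of 13 alternatives, including the omission of WT Lgr6 replicates 1 or 3 or of WT Lgr5 replicates 1 or 2, and it rested on 35 counts in WT Lgr5. Rspo1, the other R-spondin, had group means of 0.144 to 1.39 CPM and was not called.

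Receptors moved in both directions, with some Frizzled genes higher and others lower outside Lgr5. Of the 11 receptors and co-receptors, 1 was higher and 5 lower in Pelo -/- Lrig1 than in Lgr5, 1 higher and 4 lower in Pelo -/- Lgr6, and 2 higher and 3 lower in each WT comparison. The share of all genes called lower was 2.08%, 2.72%, 1.99% and 1.57% in Pelo -/- Lrig1, Pelo -/- Lgr6, WT Lrig1 and WT Lgr6. Fzd1, Fzd2 and Fzd7 were lower in every one of these comparisons.

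The promoters of Fzd1 and Fzd7 are shown because these receptors moved together. They cover chr5:4758217-4758466 (minus strand) and chr1:59481897-59482146 (plus strand) of GRCm38, the 250 bases before the RefSeq start, and run 5′ to 3′ on the gene's strand. Capitals mark a match to the TCF/LEF core.
Fzd1: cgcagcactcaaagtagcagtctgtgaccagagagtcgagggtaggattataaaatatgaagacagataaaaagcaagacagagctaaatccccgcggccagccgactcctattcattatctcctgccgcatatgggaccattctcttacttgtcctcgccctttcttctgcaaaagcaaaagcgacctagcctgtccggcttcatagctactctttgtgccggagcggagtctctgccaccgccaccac
Fzd7: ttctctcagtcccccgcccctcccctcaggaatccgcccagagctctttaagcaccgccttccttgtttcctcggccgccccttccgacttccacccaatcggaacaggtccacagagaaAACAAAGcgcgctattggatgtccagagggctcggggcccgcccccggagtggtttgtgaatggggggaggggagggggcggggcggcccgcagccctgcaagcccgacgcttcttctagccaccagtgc
Fzd7 holds 1 match, on the opposite strand and beginning 130 bases before the start, and Fzd1 holds none. Of 40 promoters of the 31 members in the RefSeq table, 6 held a match, and 14.8% of all 32851 promoters did. The 6 belong to Fzd7, Wnt5b, Wnt11, Dkk1, Lef1 and Tcf7l2.

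Fzd7 stood at 56.4, 26.4 and 37.8 CPM in Pelo -/- Lrig1, 54.2 and 39.4 in WT Lrig1, 36.4, 25.0 and 23.1 in Pelo -/- Lgr6 and 50.5, 87.8 and 22.3 in WT Lgr6, against 378, 405 and 178 CPM in Pelo -/- Lgr5 and 269.9, 344 and 308 in WT Lgr5. WT Lgr6 replicate 2 was the highest library outside Lgr5 and still under every Lgr5 library. Relative to Lgr5 it fell by 2.99 ± 0.46 in Pelo -/- Lrig1 and 3.51 ± 0.47 in Pelo -/- Lgr6, and by 2.71 ± 0.53 and 2.52 ± 0.45 in WT Lrig1 and WT Lgr6 (log2, SE; edgeR adjusted p = 0.000119, 1.55e-05, 0.000981 and 0.000301). The WT Lrig1 call was lost without WT Lrig1 replicate 2 (edgeR adjusted p = 0.0506).

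Fzd1 had 40.7, 25.03 and 23.4 CPM in Pelo -/- Lrig1, 29.9 and 10.3 in WT Lrig1, 27.97, 20.4 and 15.98 in Pelo -/- Lgr6 and 33.1, 46.2 and 27.9 in WT Lgr6, against 188, 226 and 259.5 CPM in Pelo -/- Lgr5 and 182, 136 and 248 in WT Lgr5. No library outside Lgr5 reached the lowest of the Lgr5 libraries. The log2 differences were -2.92 ± 0.43 and -3.39 ± 0.44 in Pelo -/- Lrig1 and Lgr6, and -3.23 ± 0.51 and -2.40 ± 0.42 in WT. Fzd2, a receptor for Wnt5a among others, had 8.88, 10.8 and 5.45 CPM in Pelo -/- Lrig1, 9.83 and 3.29 in WT Lrig1, 9.36, 7.06 and 5.42 in Pelo -/- Lgr6 and 7.34, 14.6 and 9.05 in WT Lgr6, against 141, 121 and 80.7 CPM in Pelo -/- Lgr5 and 70.98, 112 and 76.9 in WT Lgr5. Its groups were separated in the same way, with log2 differences of -3.77 ± 0.50 and -3.97 ± 0.50 in Pelo -/- Lrig1 and Lgr6 and of -3.06 ± 0.48 in WT Lgr6. Both genes kept their calls in every alternative that was run.

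Fzd10 ran the other way. It had 9.59, 12.1 and 9.89 CPM in Pelo -/- Lrig1, 5.75 and 21.8 in WT Lrig1, 14.6, 17.7 and 19.1 in Pelo -/- Lgr6 and 11.9, 15.3 and 15 in WT Lgr6, against 0.469, 1.49 and 0.805 CPM in Pelo -/- Lgr5 and 1.15, 0.449 and 2.52 in WT Lgr5. All Lgr5 libraries lay below all others. The log2 differences from Lgr5 were 3.51 ± 0.75 and 4.21 ± 0.77 in Pelo -/- Lrig1 and Lgr6 and 3.31 ± 0.78 and 3.35 ± 0.74 in WT, and the WT Lrig1 call was lost under 3 of 12 alternatives, with the highest edgeR adjusted p without WT Lrig1 replicate 2 (0.299).

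Fzd6, a receptor that orients hairs in mice, was the most abundant Frizzled per kb outside Lgr5. It stood at 370.5, 349.8 and 193 CPM in Pelo -/- Lrig1, 354 and 362 in WT Lrig1, 338, 292 and 270.1 in Pelo -/- Lgr6 and 330.0, 149 and 227 in WT Lgr6, against 69.4, 110.3 and 189 CPM in Pelo -/- Lgr5 and 118, 102 and 37.01 in WT Lgr5. Pelo -/- Lgr5 replicate 3 overlapped the range of the WT Lgr6 libraries. Fzd6 missed the threshold in Pelo -/- Lrig1 (1.31 ± 0.43, edgeR adjusted p = 0.0624) and Pelo -/- Lgr6 (1.29 ± 0.43, 0.0576) and was called in WT Lrig1 (2.06 ± 0.47, 0.00405) and WT Lgr6 (1.45 ± 0.43, 0.0257). The WT Lrig1 call was lost without WT Lrig1 replicate 2 (0.0647), and the WT Lgr6 call under 8 of 13 alternatives.

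Of the Frizzled sum per kb, Fzd6 took 71.8% ± 5.67 in Pelo -/- Lrig1, 75.96% ± 1.16 in WT Lrig1, 74.9% ± 0.158 in Pelo -/- Lgr6 and 61.2% ± 16.1 in WT Lgr6, against 13.6% ± 7.74 in Pelo -/- Lgr5 and 11.3% ± 5.95 in WT Lgr5 (SD). Fzd7 led in Lgr5 cells with 36.3% ± 12.1 in Pelo -/- and 42.2% ± 3.89 in WT, followed by Fzd1 with 28.2% ± 6.22 and 27.9% ± 7.87 and Fzd2 with 16.2% ± 3.84 and 14.7% ± 3.49. The Frizzled sum itself was 87.2 ± 23.6 CPM per kb in Pelo -/- Lrig1, 97.9 ± 0.0447 in WT Lrig1, 83.2 ± 9.805 in Pelo -/- Lgr6 and 78.6 ± 14.4 in WT Lgr6, against 192 ± 16.9 in Pelo -/- Lgr5 and 161 ± 7.31 in WT Lgr5. In WT Lgr6 replicate 2 Fzd6 took 42.7%, the lowest share outside Lgr5.

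Fzd3, a planar polarity receptor like Fzd6, was called lower in Pelo -/- Lrig1 (-3.08 ± 0.69, edgeR adjusted p = 0.00548) and Pelo -/- Lgr6 (-2.58 ± 0.68, 0.0139), and not in WT cells (-0.87 ± 0.74 and -1.13 ± 0.65). The Pelo -/- Lgr6 call was lost without Pelo -/- Lgr6 replicates 2 or 3 (0.0755 and 0.07595). It averaged 4.68 ± 2.90 CPM in Pelo -/- Lrig1 and 6.64 ± 4.34 in Pelo -/- Lgr6, and its Lgr5 libraries had 45.7, 37.2 and 36.4 CPM in Pelo -/- Lgr5 and 6.69, 9.36 and 18.6 CPM in WT Lgr5. The difference between the genotypes in these population contrasts was tested directly and was not called (edgeR adjusted p = 0.924 and 1). The co-receptor Lrp6 averaged 56.03 ± 2.88 CPM in Pelo -/- Lrig1 against 116 ± 20.3 CPM in Pelo -/- Lgr5 (-1.05 ± 0.32, edgeR adjusted p = 0.0457), a call lost under 8 of 13 alternatives, and Lrp5, its relative, had group means of 6.39 to 10.4 CPM and no call. Fzd4, Fzd5 and Fzd8 were called nowhere, although Fzd5 had 11.92 to 53.7 CPM in Lgr5 libraries and 0.719 to 11.79 CPM in all others.

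Among the 7 antagonists 1 was called in Pelo -/- Lrig1, 2 in Pelo -/- Lgr6 and 1 in each WT comparison with Lgr5, all lower, where 2.08%, 2.72%, 1.99% and 1.57% of all genes were called lower. Dkk3, a divergent Dickkopf protein, was called in each comparison, with 25.7, 19.3 and 21.03 CPM in Pelo -/- Lrig1, 13.5 and 15.2 in WT Lrig1, 32.6, 9.998 and 8.92 in Pelo -/- Lgr6 and 8.17, 22.02 and 10.3 in WT Lgr6, against 243, 309.8 and 189 CPM in Pelo -/- Lgr5 and 147, 99.5 and 166 in WT Lgr5. No library outside Lgr5 came near the Lgr5 range. The log2 differences were -3.49 ± 0.49 and -3.84 ± 0.50 in Pelo -/- Lrig1 and Lgr6 and -3.26 ± 0.58 and -3.35 ± 0.49 in WT (edgeR adjusted p = 4.66e-05, 1.13e-05, 0.000343 and 3.53e-05). Sfrp1, which binds Wnt proteins outside the cell, averaged 71.2 ± 7.23 CPM in Pelo -/- Lgr6 against 178 ± 41.6 CPM in Pelo -/- Lgr5 (-1.32 ± 0.43, edgeR adjusted p = 0.0486). That call was lost under 8 of 13 alternatives, including the omission of any 1 of the 6 libraries.

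The other antagonists were called in no population comparison. Kremen1, a surface receptor for Dickkopf proteins, had group means of 30.3, 29.4, 31.4 and 39.3 CPM in Pelo -/- Lrig1, WT Lrig1, Pelo -/- Lgr6 and WT Lgr6, against 50.6 CPM in Pelo -/- Lgr5 and 58.5 in WT Lgr5. Wif1, a secreted Wnt inhibitor, spread widely within groups, with 6.03, 0.4999 and 0.212 CPM in Pelo -/- Lgr6 against 3.46, 15.03 and 4.29 CPM in Pelo -/- Lgr5. Dkk1, Dkk2 and Sfrp2 had group means of 0.0403 to 1.199 CPM.

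Of the 7 cytoplasmic transducers, 1 was called in Pelo -/- Lrig1, 2 in Pelo -/- Lgr6 and 1 in each WT comparison with Lgr5, all higher, where 5.77%, 7.23%, 9.09% and 10.6% of all genes were called higher. Gsk3b, the kinase of the destruction complex, stood at 216, 218 and 176 CPM in Pelo -/- Lrig1, 402 and 463 in WT Lrig1, 210.2, 118 and 310.5 in Pelo -/- Lgr6 and 259.5, 111 and 252 in WT Lgr6, against 96.2, 93.04 and 86.9 CPM in Pelo -/- Lgr5 and 85.2, 88.5 and 50.9 in WT Lgr5. Every library outside Lgr5 lay above every Lgr5 library. It was not called in Pelo -/- Lrig1 (1.14 ± 0.38, edgeR adjusted p = 0.0684) and was called in Pelo -/- Lgr6 (1.21 ± 0.39, 0.0449), WT Lrig1 (2.53 ± 0.43, 0.000193) and WT Lgr6 (1.47 ± 0.39, 0.01102). The Pelo -/- Lgr6 call was lost under 11 of 13 alternatives and the WT Lgr6 call under 7 of 13.

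Axin1, the scaffold of the same complex, was called higher in Pelo -/- Lrig1 (1.91 ± 0.59, edgeR adjusted p = 0.0452) and Pelo -/- Lgr6 (2.76 ± 0.61, 0.00349), with 39.1, 37.3 and 44.6 CPM in Pelo -/- Lgr6 against 8.69, 1.49 and 7.68 CPM in Pelo -/- Lgr5, without overlap. The Pelo -/- Lrig1 call was lost under 8 of 13 alternatives. Its WT values were 1.17 ± 0.63 and 1.17 ± 0.58, without a call. Ctnnb1 lay at 163 to 431 CPM in the 17 libraries and was not called, with log2 differences from Lgr5 of -0.19 and -0.22 in Pelo -/- Lrig1 and Lgr6 and 0.23 and 0.13 in WT. Apc and the Dishevelled genes Dvl1, Dvl2 and Dvl3 were not called either.

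Among the transcription factors, Lef1 and Tcf7l2 were lower outside Lgr5. Lef1, a factor of the hair germ and hair matrix, had 7.41, 7.06 and 0.467 CPM in Pelo -/- Lrig1, 0.959 and 2.08 in WT Lrig1, 0.527, 0.437 and 0.0531 in Pelo -/- Lgr6 and 2.86, 0.857 and 0 in WT Lgr6, against 36.9, 75.9 and 17.2 CPM in Pelo -/- Lgr5 and 23.4, 91.4 and 15.1 in WT Lgr5. All Lgr5 libraries were above all others, though they varied widely among themselves. The difference was -6.98 ± 1.36 in Pelo -/- Lgr6 and -5.13 ± 1.22 in WT Lgr6 (log2, SE; edgeR adjusted p = 0.00187 and 0.00689), from 17 and 65 counts in those Lgr6 groups. In Lrig1 it was -3.11 ± 1.10 in Pelo -/- (edgeR adjusted p = 0.0923) and -4.82 ± 1.43 in WT (0.0333), and the WT Lrig1 call was lost without WT Lgr5 replicate 2, without either WT Lrig1 library and with no filter on low counts (0.0735 to 0.212).

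Tcf7l2 stood at 52.9, 53.99 and 55.1 CPM in Pelo -/- Lrig1, 65.6 and 45.8 in WT Lrig1, 56.2, 54.5 and 63.1 in Pelo -/- Lgr6 and 59.4, 58.8 and 65.4 in WT Lgr6, against 232, 227 and 274 CPM in Pelo -/- Lgr5 and 230.2, 204 and 97.7 in WT Lgr5. Its level was close to even across the Lrig1 and Lgr6 libraries and higher in each Lgr5 library. Its log2 difference from Lgr5 was -2.18 ± 0.35 and -2.07 ± 0.35 in Pelo -/- Lrig1 and Lgr6 and -1.67 ± 0.40 and -1.54 ± 0.35 in WT (SE). The WT Lrig1 call was lost without either WT Lrig1 library (edgeR adjusted p = 0.09197 and 0.229) and with no filter on low counts (0.0581). Tcf7 had group means of 12.6 and 14.9 CPM in Pelo -/- Lrig1 and Lgr6 against 26.9 CPM in Pelo -/- Lgr5, and was not called. Summed per kb, the 3 factors came to 11.5 ± 2.17 CPM per kb in Pelo -/- Lrig1, 13.4 ± 6.63 in WT Lrig1, 12.3 ± 2.596 in Pelo -/- Lgr6 and 13.5 ± 4.002 in WT Lgr6, against 42.99 ± 7.08 in Pelo -/- Lgr5 and 32.9 ± 18.3 in WT Lgr5.

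The feedback targets did not follow 1 pattern. Axin2, the most used reporter of beta-catenin signalling, lay between 19.5 and 50.5 CPM in all 17 libraries. Its log2 differences from Lgr5 were 0.69 ± 0.39 and 0.50 ± 0.39 in Pelo -/- Lrig1 and Lgr6 and 0.72 ± 0.43 and 0.47 ± 0.39 in WT (edgeR adjusted p = 0.289, 0.429, 0.2597 and 0.477), with 95% intervals of -0.12 to 1.5, -0.31 to 1.31, -0.18 to 1.61 and -0.34 to 1.28. Nkd1, a protein that binds Dishevelled and is induced by Wnt signalling, was lower in Pelo -/- Lrig1 and Lgr6 (-4.17 ± 1.08 and -3.95 ± 1.06, edgeR adjusted p = 0.0152 and 0.0166), with 0.5995, 0.362 and 0.701 CPM in Pelo -/- Lrig1 and 0.995, 0.625 and 0.319 in Pelo -/- Lgr6 against 10.9, 6.03 and 13.3 CPM in Pelo -/- Lgr5. In WT cells Nkd1 was not called (-3.20 ± 1.22 and -2.0 ± 0.98), with 0.899 and 0.0967 CPM in WT Lrig1 and 0.477, 2.57 and 0.362 in WT Lgr6 against 2.501, 8.65 and 2.62 CPM in WT Lgr5. The genotype difference in these contrasts was not called (edgeR adjusted p = 0.995 and 1). Without Pelo -/- Lrig1 replicates 1 or 2, or Pelo -/- Lgr6 replicates 2 or 3, its calls were lost (0.0642 to 0.0814). Nkd2 had group means of 1.59 to 3.35 CPM and was not called.

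Some members share exon bases with a gene on the opposite strand, and no source used here says whether counting used strand. The share of exon length was 0.721% for Dvl1, 3.16% for Fzd6, 3.80% for Axin2, 4.58% for Wnt5a, 6.62% for Wnt7b, 8.80% for Wnt11, 13.1% for Rspo3, 13.75% for Lef1, 14.6% for Ctnnb1, 16.1% for Sfrp2, 17.8% for Fzd5 and 18.3% for Dvl2, and for Notum it was 29.4% with Notumos and 8.72% with Myadml2os. Reads from those bases cannot be assigned to either gene with certainty.

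No member was called between Lrig1 and Lgr6 cells in Pelo -/- or in WT by edgeR, limma-voom or DESeq2, against 0% of all genes by edgeR. An unadjusted p under 0.05 was found for 6 members in Pelo -/- cells and 3 in WT cells, and Wnt7b was in both sets. The share of all genes under that unadjusted p is not given here, so neither count is read as a difference. Wnt7b was lower in all Lrig1 libraries than in all Lgr6 libraries of its genotype, with a log2 difference of -1.40 ± 0.58 in Pelo -/- and -1.67 ± 0.67 in WT (SE; edgeR adjusted p = 1 in each). With the libraries of both genotypes pooled, Wnt7b was the only 1 of the 48 genes without overlap between Lrig1 and Lgr6, against 0.651% of all genes. Wnt4 was also lower in all Lrig1 than in all Lgr6 libraries within each genotype. The Wnt4 libraries overlapped once the genotypes were pooled. The share of all genes separated within a genotype is not given here. The separation of Wnt7b and Wnt4 within genotypes is therefore not read as a difference. Lef1 had a log2 difference of 3.87 ± 1.21 in Pelo -/- cells (edgeR adjusted p = 1) and 0.31 ± 1.19 in WT cells, and its libraries overlapped in both.

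None of the 48 genes was called by edgeR between Pelo -/- and WT cells in any population. The edgeR count was 0 in Lrig1, in Lgr6 and in Lgr5 cells, against 0%, 0% and 0.0197% of all genes, and among genes with a mean of at least 5 CPM it was 0 in Lgr5 cells against 0.0641%. It was 0 as well for the effect averaged over populations and for the differences in effect between Lrig1 and Lgr5, Lgr6 and Lgr5, and Lrig1 and Lgr6, against 0% of all genes in each. At an unadjusted p under 0.05 there were 2, 2 and 6 members in Lrig1, Lgr6 and Lgr5, 2 for the averaged effect and 2, 2 and 3 for the differences. The share of all genes at that threshold is not given here, so these counts are not read as a result about the members. With limma-voom 0 members were called in each, and with DESeq2 1 was called in Lgr5 (Wnt7a, lower in Pelo -/-) and 0 elsewhere.

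In Lgr5 cells the smallest p-values belonged to 3 ligands. Wnt7a had 0.235, 0.425 and 0.805 CPM in Pelo -/- Lgr5 against 1.82, 0.897 and 15.9 CPM in WT Lgr5 (log2 -3.64 ± 1.29, edgeR adjusted p = 0.5896, DESeq2 adjusted p = 0.0474). The difference came mostly from WT Lgr5 replicate 3, without which it was -1.52 (edgeR adjusted p = 1). Wnt4 had 8.51, 30.1 and 12.9 CPM in Pelo -/- Lgr5 against 7.23, 9.61 and 2.84 CPM in WT Lgr5 (1.39 ± 0.49, edgeR adjusted p = 0.595), with 1 Pelo -/- library inside the WT range. Wnt5a had 1.47, 1.56 and 5.21 CPM in Pelo -/- Lgr5 against 6.02, 12.1 and 5.25 CPM in WT Lgr5 (-1.5 ± 0.53, 0.595), and all 3 Pelo -/- libraries lay below the WT range.

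In Lrig1 cells, Gsk3b stood at 216, 218 and 176 CPM in Pelo -/- against 402 and 463 CPM in WT (-1.09 ± 0.42, edgeR adjusted p = 1), without overlap. The share of all genes whose libraries separate by genotype is not given here. This separation and that of Wnt5a in Lgr5 cells are therefore not read as differences. Dvl2, a Dishevelled gene, had 6.21, 13.6 and 4.59 CPM in Pelo -/- against 2.997 and 2.27 CPM in WT (1.63 ± 0.76, edgeR adjusted p = 1). Rspo1 had 3.27, 0 and 0.234 CPM in Pelo -/- against 0.2397 and 0.0484 CPM in WT (3.00 ± 1.57, edgeR adjusted p = 1), and without Pelo -/- Lrig1 replicate 1 its log2 difference was -0.33. In Lgr6 cells the smallest p-values were those of Fzd7 (36.4, 25.0 and 23.1 CPM in Pelo -/- against 50.5, 87.8 and 22.3 CPM in WT, -0.93 ± 0.43), Dkk2 (2 counts over the Pelo -/- libraries against 21 over the WT libraries) and Fzd1 (27.97, 20.4 and 15.98 CPM in Pelo -/- against 33.1, 46.2 and 27.9 CPM in WT, -0.74 ± 0.40), with an edgeR adjusted p of 1 each.

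A p above the threshold does not show that the genotypes are alike, and the 95% intervals give what these data allow. For the effect averaged over populations the interval was -0.49 to 0.48 for Axin2, -0.44 to 0.48 for Ctnnb1, -0.36 to 0.77 for Wnt3, -0.58 to 0.89 for Wnt10a, -0.32 to 0.74 for Fzd6, -0.89 to 0.16 for Fzd7 and -0.31 to 0.53 for Tcf7l2 (log2, Pelo -/- over WT). For Lef1 it was -1.26 to 1.16, while its log2 estimates were 1.71 in Lrig1, -1.85 in Lgr6 and 0.0 in Lgr5 cells. An average can hide such opposite estimates.

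**Figure D4:**
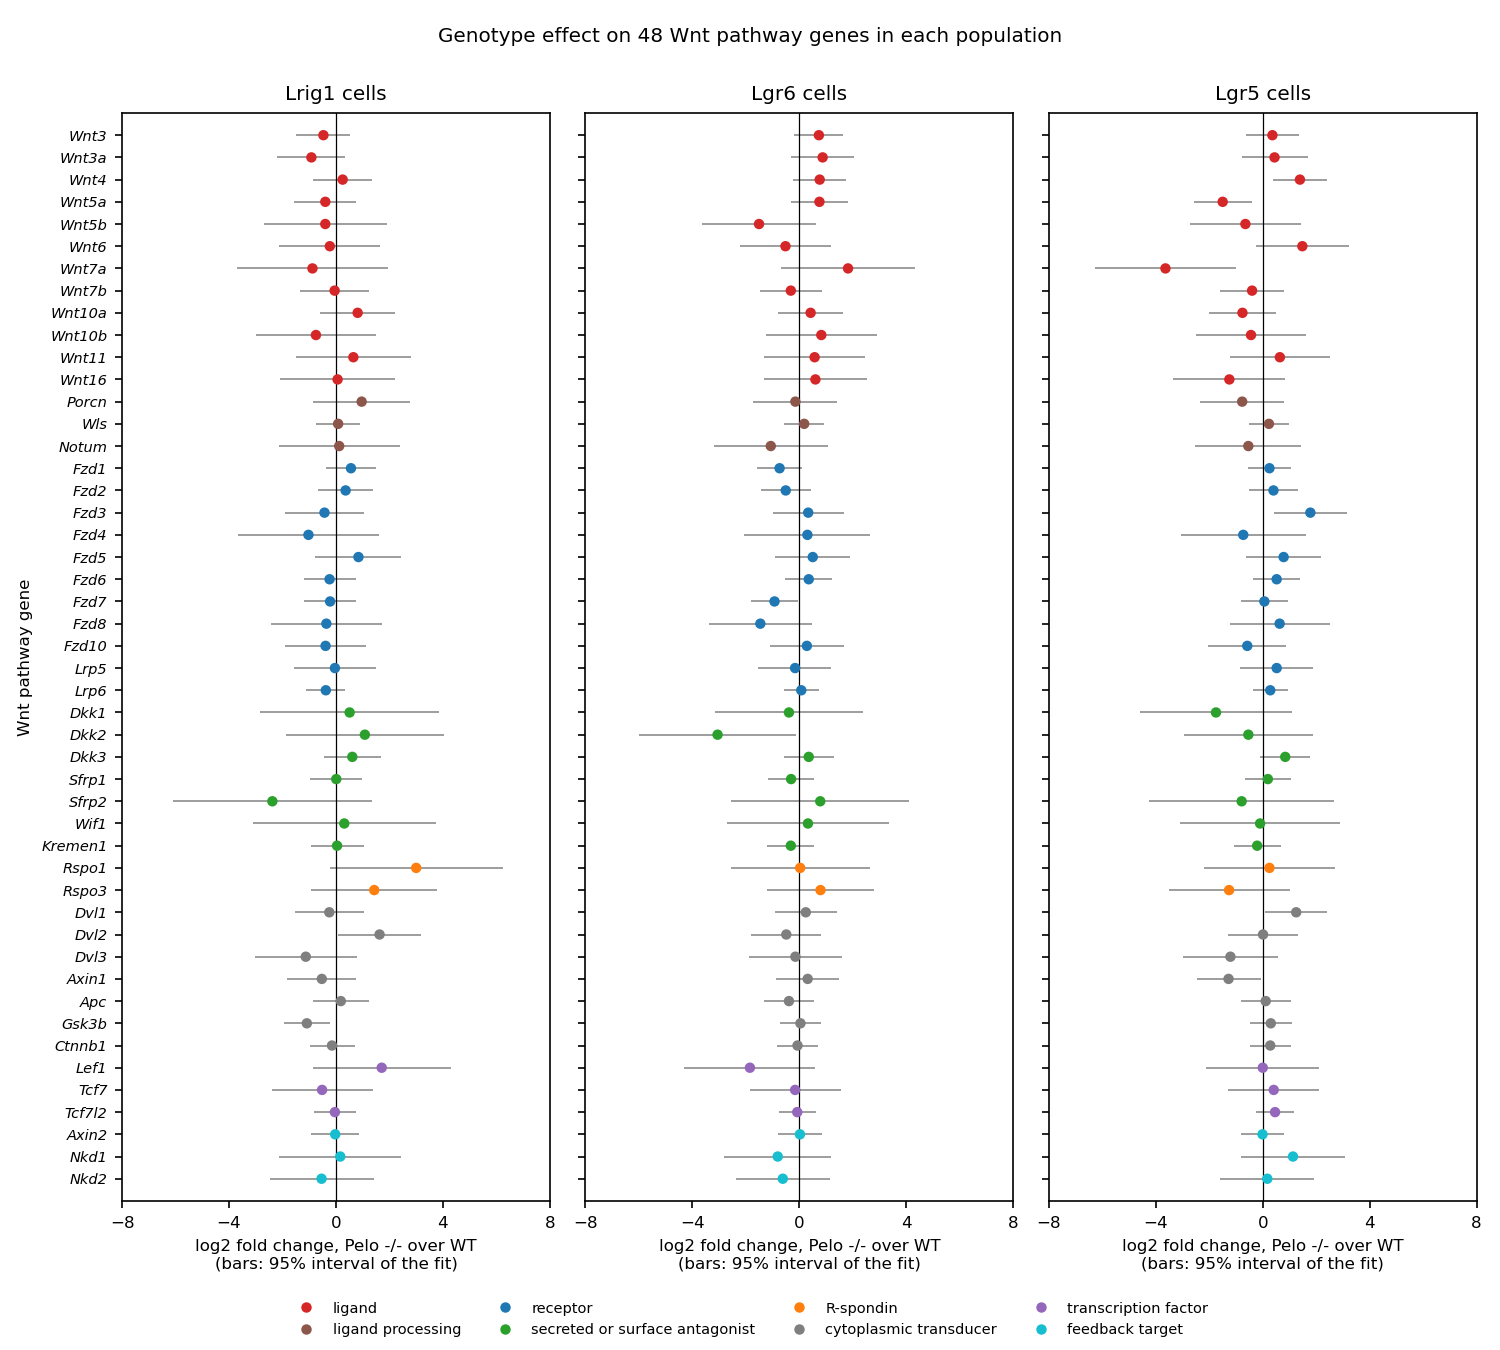
Log2 fold change of Pelo -/- over WT with its 95% interval for the 48 genes in Lrig1, Lgr6 and Lgr5 cells, coloured by role. No interval belongs to a called gene, and the widest belong to scarce genes such as Sfrp2, Wif1 and Rspo1.

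Beyond the 48 genes, 72 further Wnt genes with enough counts were read from a list of 74, and the shares of all genes called are those given for the 48. In Pelo -/- cells 14 differed between Lrig1 and Lgr5 (4 higher and 10 lower) and 16 between Lgr6 and Lgr5 (6 higher and 10 lower), and in WT cells 9 (4 higher and 5 lower) and 12 (5 higher and 7 lower). Their medians were -0.58 and -0.62 in Pelo -/- cells and -0.38 and -0.39 in WT cells. The lower calls included Lgr5, the gene by which the Lgr5 cells were sorted, in both Pelo -/- comparisons and in WT Lgr6. Also among them were Sox9 in each comparison and Fgf18 in both Pelo -/- ones, and these 2 are in the bulge and hair germ list above. Between Lrig1 and Lgr6, and between the genotypes, 0 were called by edgeR and by limma-voom, with at most 8 at an unadjusted edgeR p under 0.05 in any of these comparisons. For that unadjusted count, too, the share of all genes is not given here. DESeq2 called Lgr5 in Pelo -/- Lrig1 over Pelo -/- Lgr6 (log2 4.56, adjusted p = 0.00575) and Rnf43, an enzyme that removes Frizzled receptors, in Pelo -/- over WT Lgr5 (-1.95, adjusted p = 0.0207) and in the difference of the Pelo effect between Lgr6 and Lgr5 (2.80, adjusted p = 0.03496), and both genes were named here after these values were seen.

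Jup, which encodes plakoglobin, a relative of beta-catenin in desmosomes, averaged 794 ± 259.8 CPM in Pelo -/- Lrig1, 906 ± 23.2 in WT Lrig1, 1236 ± 78.99 in Pelo -/- Lgr6 and 975 ± 144 in WT Lgr6, against 112 ± 73.2 in Pelo -/- Lgr5 and 93.9 ± 73.1 in WT Lgr5 (SD). Its differences from Lgr5 were 2.82 ± 0.50 and 3.46 ± 0.51 in Pelo -/- Lrig1 and Lgr6, and 3.27 ± 0.53 and 3.38 ± 0.51 in WT. Prickle1, a planar polarity gene, was higher by 5.42 ± 0.73 and 6.02 ± 0.74 in Pelo -/- Lrig1 and Lgr6 and by 3.57 ± 0.69 and 4.07 ± 0.67 in WT, while its relative Prickle2 had log2 differences of -2.28 ± 0.37 in Pelo -/- Lgr6 and -1.32 ± 0.36 in WT Lgr6. Apcdd1, a membrane inhibitor of Wnt signalling that is mutated in a human hair loss, was higher by 6.24 ± 1.08 and 6.75 ± 1.10 in Pelo -/- and by 5.13 ± 1.03 and 5.38 ± 1.01 in WT Lrig1 and Lgr6. Tle3, a co-repressor that binds TCF factors, was higher in Lgr6 by 1.66 ± 0.44 in Pelo -/- and 2.09 ± 0.45 in WT. The Pelo -/- Lgr6 call of Tle3 was lost under 4 of 13 alternatives, with an edgeR adjusted p of at most 0.08595, and the WT Lgr6 call of Prickle2 under 3 of 13, with at most 0.129.

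Genes with Lgr5-biased levels in the longer list included Trabd2b, a membrane protease that inactivates Wnt proteins, with log2 differences of -4.55 ± 0.77 and -5.74 ± 0.82 in Pelo -/- Lrig1 and Lgr6 and -4.16 ± 0.90 and -3.74 ± 0.74 in WT. Lgr4, a receptor of R-spondins, differed by -1.80 ± 0.36 and -1.80 ± 0.36 in Pelo -/- and -1.40 ± 0.41 and -1.56 ± 0.36 in WT. Sox9, a transcription factor of hair follicle stem cells, differed by -2.82 ± 0.41 and -3.29 ± 0.42 in Pelo -/- and -2.20 ± 0.47 and -1.99 ± 0.40 in WT. In WT Lrig1 the calls of Sox9, Lgr4 and Trabd2b were lost without WT Lrig1 replicate 2 (edgeR adjusted p = 0.0709, 0.260 and 0.0637), and those of Sox9 and Lgr4 also without replicate 1 (0.07054 and 0.240). For Lgr4 the call was lost under 6 of 12 alternatives. These included no filter on low counts (0.1416), only the compared groups (0.06467) and the omission of WT Lgr5 replicate 1 (0.05924) or 2 (0.07485).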

How the data were processed

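RNA-seq counts were available for 17 libraries of GFP-sorted mouse epidermal cells, in 6 groups of population and genotype read from the sample titles. The values are whole-number counts per gene as deposited by the authors, with no normalization. Per the submitters' processing notes, STAR, edgeR, GRCm38 and mm10 were used, without versions. No source used here names the counter, the annotation release or the use of strand. Of 48820 identifiers, 48058 matched an entry in a list of gene names and 762 did not. Exon lengths and gene coordinates came from GENCODE M21 (GRCm38).

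Counts were tested with edgeR 4.0.16 in R 4.3.3 (quasi-likelihood, robust, TMM), with all 17 libraries in 1 fit and 1 coefficient per group. The filter filterByExpr (minimum count 10, minimum total 15) left 30405 genes, and the common dispersion was 0.537. P-values were Benjamini-Hochberg adjusted over all genes within each of 13 comparisons, and genes were called under 0.05. Standard errors were taken from the log2 fold change and the F statistic. Levels are TMM-scaled CPM. Alternatives were RLE size factors, no filter, a mean of at least 5 CPM, DESeq2 1.42.0, limma-voom (limma 3.58.1), only the compared groups, a replicate block and the omission of each library.

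Total counts were 9647507 to 28098841 per library. Values in every library are given for members called in the same direction in both genotypes against Lgr5 and for the 3 with the smallest p in each comparison of Pelo -/- with WT within a population. Others are named with group values. Fzd6, Fzd3, Axin1, Nkd1 and Wif1 were given library values after these had been seen. From the longer list, the 8 genes with the smallest p were described, taking the larger adjusted p of both genotypes against Lgr5. Besides these, Lgr5, Fgf18 and Rnf43 were named. Dact1, Vangl2 and Ror2 were also called in both genotypes, in Lrig1 or Lgr6, and were not described. The members and lists were chosen with earlier results of these data known. The fit was tested on simulated data. Protein sequences were not used here.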

Additional observations from a re-analysis of the deposited data

How the results depend on the processing

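Numbers of members called in edgeR were 18, 20, 14 and 18 for Pelo -/- Lrig1, Pelo -/- Lgr6, WT Lrig1 and WT Lgr6 against Lgr5. Shares of all genes called are given for this fit and for a mean of at least 5 CPM, and for no other setting. DESeq2 called 22 in WT Lrig1 against WT Lgr5 (10 higher and 12 lower) and 1 in Pelo -/- against WT Lgr5, and the cause was not tested. In the longer list DESeq2 called 23 of 67, 27 of 68, 21 of 71 and 22 of 68 genes in the order above. There edgeR called 14, 16, 9 and 12 of 72. How many of all genes DESeq2 called is not given here, so its higher counts cannot be ascribed to the Wnt genes. Leaving out 1 library gave 13 to 16 in Pelo -/- Lrig1, 16 to 20 in Pelo -/- Lgr6, 10 to 16 in WT Lrig1 (lowest without WT Lrig1 replicate 2) and 12 to 17 in WT Lgr6 (lowest without WT Lgr6 replicate 3), and 0 in every other comparison. Using only the compared groups gave 17, 22, 14 and 13 in the order above, and this setting could not be applied to the averaged effect.

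Same-numbered libraries of different groups had correlations of -0.237 to 0.24 in their deviations from the group means, with 3 of 40 over 0.1. Differently numbered libraries had -0.298 to 0.263. In groups of 2 or 3 libraries such deviations depend on each other, so this check cannot exclude that replicate numbers pair the samples. With the replicate block the counts were 18, 19, 14 and 18 in the same order, and 0 elsewhere. The log2 difference of Rspo1 between Pelo -/- and WT Lrig1 was 3.0 and lay between -0.33 (without Pelo -/- Lrig1 replicate 1) and 4.3 (without WT Lrig1 replicate 1) when 1 library was left out. Of 54 population values of the named members, calls were lost for 6 with RLE, 7 at a mean of at least 5 CPM, 2 with DESeq2, 2 with limma-voom, 1 with no filter, 7 with only the compared groups and 1 with the block, and for 28 of 313 when a library was left out, and 0 changed direction. Wnt3, Wnt3a, Fzd1, Fzd2 and Dkk3 kept their calls under all of them.

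Groups of 3 libraries, and of 2 in WT Lrig1, limit what the comparisons can detect, and the scarcest genes rest on few counts, such as Dkk2 with 2 over the Pelo -/- Lgr6 libraries.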
